A study of Mus musculus with 3 samples.

Results

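Connexin transcripts were described in single cells of the developing mouse prostate, for the 4 connexin genes Gja1, Gja4, Gja5 and Gjb5. They were the rows named for this description among 10 connexin genes that had a row, of 20 connexin names sought, in a table of 9781 usable rows. The series holds 1 library each of male urogenital sinus (E18.5_UGS), which gives rise to prostatic buds late in gestation, and of prostate at postnatal days 14 and 35, all labelled normal. The labels gave no strain, genotype or number of animals. The study's methods describe mice of mixed C57BL/6 and 129S1/SvImJ background carrying a membrane GFP reporter with Osr1-Cre, a Cre expressed in the embryonic urogenital sinus, without saying which animals gave these libraries. No label tied a cell to its library. The table held 14573 cells whose barcodes ended in 1 of 3 numbers, so the cells were handled as sets 1, 2 and 3, which were not matched to tissues or ages. Sets 1, 2 and 3 held 766, 5350 and 8457 cells with a median of 19357, 1738 and 1788 unique molecular identifiers (UMIs, counted transcript molecules) per cell, and 1, 0 and 13 barcodes were shared between sets 1 and 2, 1 and 3, and 2 and 3. Because cells of 1 library are not replicates, no test was made. Levels are given as CPM, the UMIs of a gene scaled to 1000000 UMIs of the same cells, with 95% intervals for counting error only.

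Connexins assemble into hemichannels that dock between neighbouring cells and form gap junctions, through which ions and small metabolites pass directly from cell to cell. Each tissue uses its own combination. Gja1 is the most widely used member, known from smooth muscle, fibroblasts and basal or myoepithelial cells, Gja4 and Gja5 are known from vascular endothelium, mainly of arteries, and Gjb5 belongs to a group of connexins used by stratified epithelia.

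In GRCm38.p6, the assembly that mm10 stands for, Gja1 lies on chromosome 10 (56377300 to 56390419) and Gja5 on chromosome 3 (97032402 to 97053634). Gja4 (127311420 to 127314039) and Gjb5 (127354809 to 127358164) lie on chromosome 4, 40769 bases apart. The 250 bases before each gene's start are shown because the members differ in the classes that hold them, with matches of 4 motifs on either strand in capitals. The motifs were the TATA box TATAAA, the GC box GGGCGG, the SOX core ACAAT and the AP-1 site TGANTCA, none of which overlapped another here. The windows are from RefSeq at chr10:56377050-56377299 (plus strand), chr4:127314040-127314289 (minus), chr3:97032152-97032401 (plus) and chr4:127358165-127358414 (minus).
Gja1: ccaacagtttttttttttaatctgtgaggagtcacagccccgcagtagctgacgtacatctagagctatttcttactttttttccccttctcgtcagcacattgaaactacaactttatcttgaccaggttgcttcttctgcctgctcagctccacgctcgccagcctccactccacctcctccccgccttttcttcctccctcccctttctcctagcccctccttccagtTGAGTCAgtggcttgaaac
Gja4: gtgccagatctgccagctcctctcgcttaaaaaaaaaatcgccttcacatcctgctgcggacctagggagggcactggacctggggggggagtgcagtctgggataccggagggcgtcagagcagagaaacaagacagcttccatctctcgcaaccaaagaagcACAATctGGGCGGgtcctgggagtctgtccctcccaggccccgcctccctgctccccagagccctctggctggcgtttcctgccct
Gja5: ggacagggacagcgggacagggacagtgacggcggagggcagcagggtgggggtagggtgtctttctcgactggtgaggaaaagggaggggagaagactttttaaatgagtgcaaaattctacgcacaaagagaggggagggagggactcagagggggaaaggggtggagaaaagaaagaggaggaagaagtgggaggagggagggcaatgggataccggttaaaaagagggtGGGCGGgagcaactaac
Gjb5: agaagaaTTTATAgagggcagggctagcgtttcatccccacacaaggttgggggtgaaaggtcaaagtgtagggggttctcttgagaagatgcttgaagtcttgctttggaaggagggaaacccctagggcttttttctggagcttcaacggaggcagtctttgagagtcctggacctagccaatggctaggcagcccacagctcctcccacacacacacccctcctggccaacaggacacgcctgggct
The Gja1 window held 1 AP-1 match, from 19 to 13 bases before the start, and 6.75% of 32851 such windows held one. Gja4 held 1 SOX core and 1 GC box, Gja5 held 1 GC box and Gjb5 held 1 TATA box, on the minus strand of the gene. Of all windows, 27.7% held the SOX core, 32.7% the GC box and 12.4% the TATA box. These matches describe letters and not binding.

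Cells were clustered without the connexin rows and classes were named from marker genes. Of 14476 cells with at least 200 genes, epithelium-like cells numbered 165, 1589 and 2969 in sets 1, 2 and 3, endothelium-like cells 38, 96 and 196, smooth muscle-like cells 77, 1605 and 1962, fibroblast-like cells 375, 1659 and 2623, and pericyte-like cells 10, 28 and 130. Glia-like, leukocyte-like and neuron-like cells were the other named classes. Endothelium-like cells carried UMIs of all 15 endothelium markers with a row, and the defining Cdh5 was at 750, 862 and 782 CPM in them. Smooth muscle-like cells were led by Actg2, the smooth muscle actin, but also by Tnnt1 and Tnnc2, which belong to striated muscle. Epithelium-like cells came from 3 clusters. Cluster 1 was led by Lgals7, Sfn and Lamb3, cluster 4 by Wfdc3, Clca1 and Tspan1, and cluster 8 had the urothelial Upk1a and Ivl among its leading genes. Clusters 1, 4 and 8 carried 4, 3 and 5 of the 5 basal markers with a row, and 0, 3 and 4 of the 4 luminal ones. Myod1 and Myog, the myogenic factors, were also among the leading genes of cluster 1. Of its 22 cells in set 1, 14 held Myod1 and 9 held Sfn, whereas Myod1 was in 2 of 1123 cells in set 2 and 0 of 1911 in set 3.

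Gja1 was the connexin with most UMIs, 3382 in 2063 cells, and was highest in endothelium-like cells of every set. Its level in endothelium-like cells was 150 CPM (interval 128 to 175) in set 1, 182 (144 to 227) in set 2 and 349 (309 to 392) in set 3. In fibroblast-like cells it was 16.1 CPM (13.3 to 19.2), 30.1 (23.7 to 37.6) and 69.9 (61.7 to 78.8). The intervals of the 2 classes did not overlap in any set, and the log2 ratio was 3.22 (2.87 to 3.58), 2.60 (2.13 to 3.07) and 2.32 (2.07 to 2.57). In set 1 it was 2.54 with cells classed one by one and 1.92 (-0.63 to 3.98) after thinning, which left 3 and 8 UMIs. UMIs were found in 24 of 38, 46 of 96 and 111 of 196 endothelium-like cells.

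Epithelial RNA was present in endothelium-like cells of sets 2 and 3, where the epithelial gene Sfn was at 696 and 1229 CPM against 4.75 CPM in set 1, and its part in the Gja1 level was not tested. Restricted to endothelium-like cells with no UMI of any of 12 epithelium markers, Gja1 stood at 186 CPM in 24 cells, 232 CPM in 53 cells and 442 CPM in 123 cells.

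Glia-like cells had Gja1 at 79.8 CPM (58.4 to 106), 139 CPM (95.1 to 196) and 77.8 CPM (48.2 to 119) and ranked next in sets 1 and 2, while in set 3 they could not be told from fibroblast-like cells. In set 2 they could not be told from endothelium-like cells (log2 0.39, -0.22 to 1.03), whereas endothelium-like cells were higher in sets 1 (0.91, 0.43 to 1.42) and 3 (2.16, 1.52 to 2.88). Over fibroblast-like cells the glia-like log2 ratio was 2.31 (1.79 to 2.81), 2.21 (1.57 to 2.82) and 0.16 (-0.56 to 0.80), so that Gja1 passed the 2-fold limit in sets 1 and 2. Of all rows tested, 13.7%, 15.8% and 21.3% passed it in that direction in sets 1, 2 and 3. Pericyte-like cells had Gja1 at 8.48, 0 and 9.68 CPM, from 2, 0 and 2 UMIs, and neuron-like cells at 7.32, 0 and 0 CPM, from 8, 0 and 0 UMIs. The 0 in 28 pericyte-like cells of set 2 allows a share of cells with a UMI of up to 12.3%. Leukocyte-like cells had 16.7, 73.2 and 19.1 CPM of Gja1. The 73.2 CPM of set 2 came from 6 UMIs in a class of 25 cells with Sfn at 1805 CPM, and its 11 cells without an epithelium marker UMI had 0 Gja1 UMIs, with an upper bound of 210.0 CPM.

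In epithelium-like cells as a whole Gja1 stood at 22.8 CPM (19.6 to 26.4) in set 1, 68.6 (63.3 to 74.3) in set 2 and 69.6 (65.8 to 73.5) in set 3. Against fibroblast-like cells this was a log2 ratio of 0.51 (0.17 to 0.85), 1.19 (0.85 to 1.55) and -0.01 (-0.20 to 0.19). Of the 4 members only Gja1, in set 2, was at least 2-fold higher with at least 10 UMIs in both classes together, against 16.8%, 15.5% and 20.7% of all rows in sets 1, 2 and 3. The set 1 ratio depended on the processing. Its interval reached 0 with at least 500 genes per cell (0.34, upper bound 0.68), and the ratio was 0.08 (-0.38 to 0.55) with cells classed one by one, and -0.23 (-2.78 to 1.82) after thinning, which left 3 and 8 UMIs. In set 3 the levels of both classes differed by less than the counting error, but the direction depended on the processing, with a log2 ratio of 0.70 (0.38 to 1.03) after thinning and -0.39 (-0.67 to -0.09) with at least 500 genes per cell.

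The epithelial level of Gja1 was divided among the clusters. In set 2, cluster 1, led by Lgals7, had 98.7 CPM (90.3 to 108) from 516 UMIs in 359 of 1123 cells, and cluster 4, with Tspan1, had 28.8 CPM (23.4 to 34.97) from 101 UMIs in 84 of 427 cells. In set 3, cluster 1 had 147 CPM (139 to 156) from 1113 UMIs in 666 of 1911 cells, and cluster 4 had 12.1 CPM (9.91 to 14.5) from 110 UMIs in 76 of 958 cells. The log2 ratio of cluster 1 over cluster 4 was 1.78 (1.47 to 2.10) in set 2 and 3.61 (3.32 to 3.90) in set 3, where 13.3% and 13.5% of all rows were at least 2-fold higher in cluster 1. The cells of cluster 1 were the shallower ones, with a median of 3571 and 2836 UMIs against 6869 and 6788 in cluster 4. After thinning each cell to 900 UMIs, 9.76% and 11.6% of cluster 1 cells and 1.42% and 0.74% of cluster 4 cells kept a Gja1 UMI. Cluster 8, with the urothelial genes, had 7.15 CPM from 2 UMIs in set 2 and 19.3 CPM (12.4 to 28.8) in set 3, where cluster 1 was higher by a log2 ratio of 2.93 (2.35 to 3.58).

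In set 1 the pattern was another. Gja1 was at 32.3 CPM (21.97 to 45.9) in cluster 1, 14.1 CPM (10.2 to 19.0) in cluster 4 and 27.2 CPM (22.3 to 32.8) in cluster 8. Cluster 1 was higher than cluster 4 by a log2 ratio of 1.20 (0.48 to 1.90), beside 24.1% of all rows, and it could not be told from cluster 8 (0.25, -0.37 to 0.84). The 14 cells with Myod1 held 6 of the 31 Gja1 UMIs of cluster 1.

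**Figure D1:**
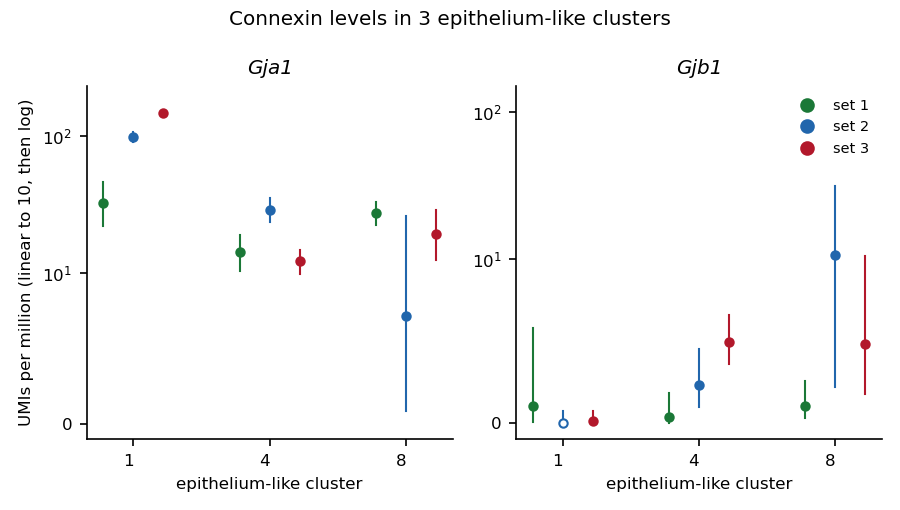
Levels of Gja1 and Gjb1 in CPM (vertical axis, linear to 10 and logarithmic above) in epithelium-like clusters 1, 4 and 8, for sets 1, 2 and 3. Points are sums over cells, lines are 95% Poisson intervals, open points are sums of 0, and Gja1 in cluster 1 stands at 98.7 and 147 in sets 2 and 3 against 28.8 and 12.1 in cluster 4.

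Smooth muscle-like cells had Gja1 at 35.5 CPM (26.4 to 46.7) in set 1, 16.7 CPM (12.5 to 21.99) in set 2 and 26.0 CPM (21.0 to 31.9) in set 3. The UMIs were in 18 of 77, 46 of 1605 and 88 of 1962 cells, and the most in any 1 cell were 10, 2 and 2. Relative to fibroblast-like cells Gja1 was higher in set 1, with a log2 ratio of 1.14 (0.64 to 1.63), and lower in sets 2 and 3, with -0.85 (-1.39 to -0.32) and -1.42 (-1.78 to -1.08). In set 2 the ratio was -0.42 (-1.12 to 0.28) with at least 500 genes per cell and -1.71 (-2.69 to -0.81) after thinning. Gja1 passed 2-fold upward in set 1 and downward in set 3. Of all rows, 4.97%, 11.1% and 13.3% were at least 2-fold higher, and 9.4%, 11.3% and 16.6% at least 2-fold lower, in smooth muscle-like cells of sets 1, 2 and 3. The class was thin in set 1, where its 10 smooth muscle markers summed to 5408 CPM against 26591 and 26000 CPM in sets 2 and 3. Its 11 fibroblast markers summed to 6113 CPM in set 1, above its own markers, and to 5607 and 3459 CPM in sets 2 and 3, and their part in the ratio was not tested. With only cells of at least 500 genes, clustered anew, the set 1 ratio was -0.02 (-0.62 to 0.55). Smooth muscle-like cells of set 1 with no epithelium marker UMI had 16.1 CPM (8.04 to 28.8), from 11 UMIs in 47 cells, and fibroblast-like cells with none had 19.0 CPM (14.9 to 24.0). Fibroblast-like clusters 2 and 3 had similar Gja1 levels, 19.8 and 12.3 CPM in set 1, 32.1 and 28.4 CPM in set 2, and 75.4 and 63.3 CPM in set 3, and only in set 1 did the interval of their log2 ratio leave out 0 (0.68, 0.13 to 1.25).

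**Figure D2:**
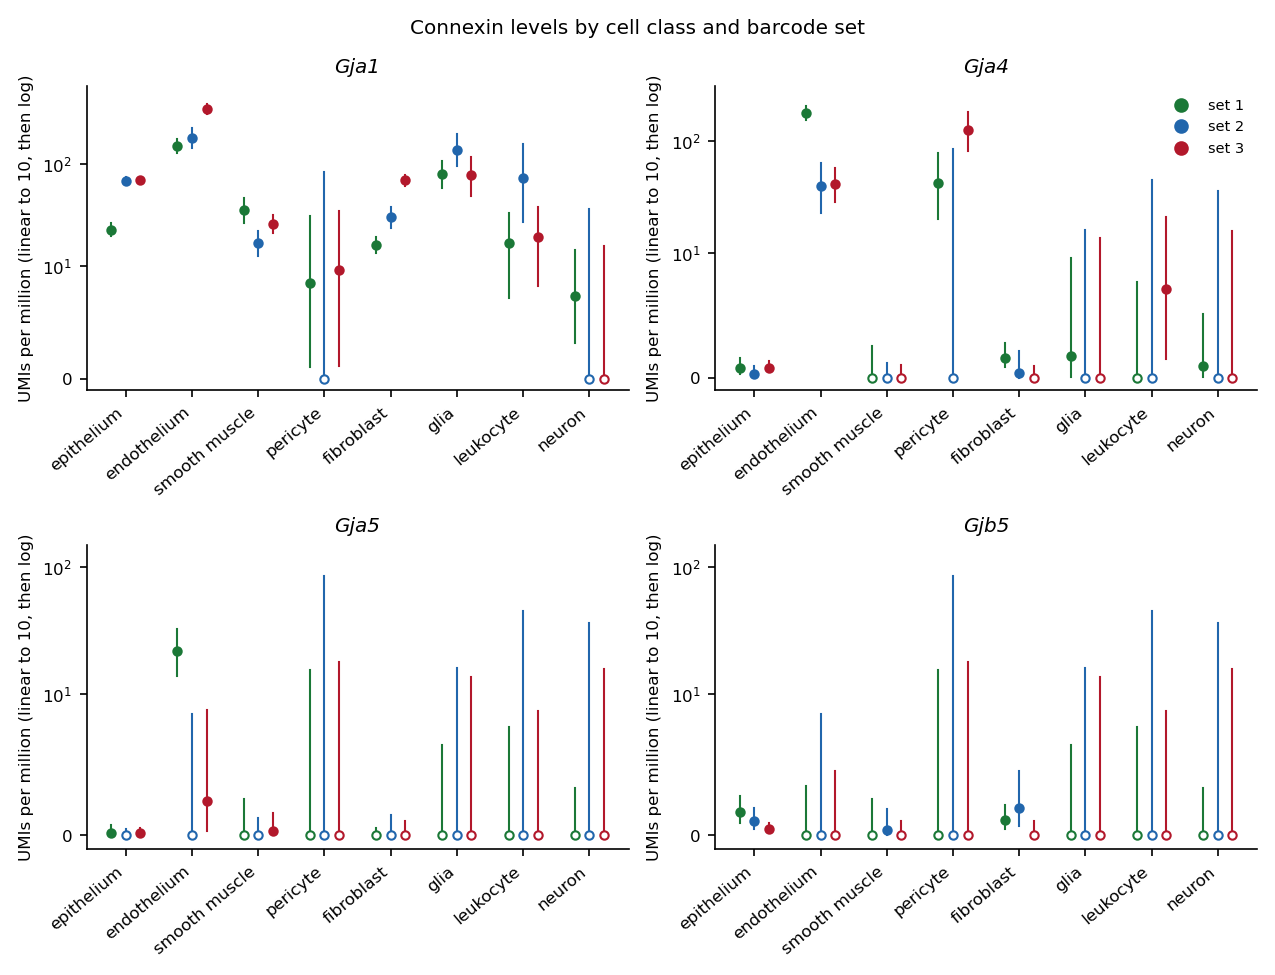
Levels of Gja1, Gja4, Gja5 and Gjb5 in CPM (vertical axis, linear to 10 and logarithmic above) in 8 cell classes for sets 1, 2 and 3. Points are sums over the cells of a class, lines are 95% Poisson intervals and open points are sums of 0; Gja1 has UMIs in most classes, whereas Gja4 stands above 10 only in endothelium-like and pericyte-like cells.

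Gja4 had 318 UMIs in 79 cells. Endothelium-like cells held 190 of 220 UMIs in set 1, 17 of 21 in set 2 and 34 of 77 in set 3. Their level was 180 CPM (156 to 208), 39.7 CPM (23.1 to 63.6) and 41.8 CPM (28.9 to 58.3), from 6 of 38, 9 of 96 and 15 of 196 cells. One cell held 107 of the 190 UMIs of set 1, and without it the log2 ratio over fibroblast-like cells there was 5.70 in place of 6.80.

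Smooth muscle-like cells had 0 Gja4 UMIs in every set, which allows a share of cells with a UMI of up to 4.68%, 0.230% and 0.188%. Fibroblast-like cells had 12, 1 and 0 UMIs, of which 11 of set 1 were in a single cell. The endothelium-like over fibroblast-like log2 ratio was 6.80 (5.96 to 7.78) in set 1. In set 2, 17 UMIs stood against 1, a log2 ratio of 6.67 with a wide interval of 3.995 to 12.1, or 5.08 (3.29 to 7.50) with the fibroblast-like sum set to 3 UMIs per class. In set 3, against 0 UMIs set to the same 3 UMIs, Gja4 was at least 52.6-fold higher in endothelium-like cells, a log2 ratio of 5.72 with a counting interval of 4.05 to 8.06, and with at least 500 genes per cell the ratio at that floor was 3.84. Gja1 and Gja4 both passed 2-fold in all 3 sets and Gja5 did so in set 1, beside 12.1%, 17% and 22.8% of all rows in sets 1, 2 and 3.

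Pericyte-like cells, named after the contractile cells around small vessels, also had Gja4. In this class the 10 smooth muscle markers summed to 4912, 6109 and 10380 CPM, above the 3107, 2457 and 3523 CPM of the 5 pericyte markers. Whether it held vascular smooth muscle cells was not tested. In set 1 Gja4 had 10 UMIs in 5 of 10 cells, which was 42.4 CPM (20.3 to 77.9). In set 3 it had 26 UMIs in 16 of 130 cells, which was 126 CPM (82.2 to 184). In set 2 there were 0 UMIs in 28 cells, with an upper bound of 84.7 CPM, which lies above the 39.7 CPM of endothelium-like cells, so no difference between them was detectable. Over fibroblast-like cells the log2 ratio was 4.71 (3.34 to 6.05) in set 1, and in set 3, where fibroblast-like cells had 0 UMIs, Gja4 was at least 159-fold higher in the classes as named, with a log2 ratio of 7.31 (5.60 to 9.68) at that floor, beside 8.08% and 15.1% of all rows (6.58% in set 2, where no member passed). The set 3 ratio at that floor was lower in some settings, 5.75 (3.90 to 8.19) with at least 500 genes per cell, 5.92 (4.18 to 8.30) with cells classed one by one from their markers and 6.28 (4.36 to 8.76) after thinning. Classed one by one, the set 1 ratio was 1.07 (-0.28 to 2.42), an interval that holds 0. Between the 2 vascular classes the order differed by set. Endothelium-like cells were above pericyte-like cells in set 1 (log2 2.09, 1.18 to 3.17) and below them in set 3 (-1.59, -2.37 to -0.80). Without the cell that held 107 UMIs the set 1 ratio was 0.98 (0.03 to 2.10), from 83 and 10 UMIs. The set 3 ratio was -0.71 (-1.54 to 0.14) with cells classed one by one, -0.51 (-1.78 to 0.79) after thinning and -0.40 (-1.19 to 0.40) without endothelium-like cells with an epithelium marker UMI, intervals that hold 0. Leukocyte-like cells of set 3 had 3 Gja4 UMIs, 7.16 CPM (1.48 to 20.9).

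RNA of pericytes was present in endothelium-like cells of sets 2 and 3, where the 5 pericyte markers summed to 208 and 266 CPM against 7.60 CPM in set 1 and 3107, 2457 and 3523 CPM in pericyte-like cells. Pericyte marker UMIs were seen in 2 of 6, 4 of 9 and 6 of 15 endothelium-like cells with Gja4, and in 8 of 38, 24 of 96 and 33 of 196 endothelium-like cells in all. Without the cells that had one, the log2 ratio over fibroblast-like cells was 5.80, 5.30 and 5.63. Cells without an epithelium marker UMI had Gja4 at 98.0, 59.5 and 95.3 CPM.

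Epithelium-like cells had few Gja4 UMIs, 6, 3 and 14 in sets 1, 2 and 3. In set 3, 13 of the 14 were in 10 cells of cluster 1. Sfn was in all 10 and in 1879 of the 1901 other cells of that cluster. The median depth was 10890 UMIs against 2828 in those other cells, and pericyte markers summed to 499 CPM in them against 42.1 CPM. The part of pericyte RNA in these UMIs was not tested.

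Gja5, the other arterial connexin, had 30 UMIs in 10 cells. Endothelium-like cells of set 1 held 23 of them, 21.8 CPM (13.8 to 32.8), in 3 of 38 cells with 12, 7 and 4 UMIs. All 3 cells also held Gja4, with 31, 107 and 33 UMIs, and Gja1, with 20, 3 and 12 UMIs. They were deep cells, with 87990, 63309 and 49012 UMIs in all against a class median of 20338. The first 2 held 1 pericyte marker UMI each, and 22 and 4 epithelium marker UMIs. Against 0 UMIs in fibroblast-like cells, set to 3 UMIs, the fold was at least 54.0, a log2 ratio of 5.75 with a counting interval of 4.03 to 8.13. The log2 ratio was 4.82 without the cell with most UMIs and 3.23 with cells classed one by one. It was 5.32 without high doublet scores, which left 16 UMIs. Without endothelium-like cells with a pericyte or an epithelium marker UMI it was 4.10 or 4.60, each from 4 UMIs. The part of depth or doublets in the shared detection was not tested. Endothelium-like cells of set 2 had 0 UMIs in 96 cells, and those of set 3 had 2 UMIs in 2 of 196 cells, neither with a Gja4 UMI. The other 5 UMIs were single ones, 1 in an epithelium-like cell of set 1, and 3 in epithelium-like cells and 1 in a smooth muscle-like cell of set 3.

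Endothelium-like cells were then sorted by which of the arterial (Sox17, Hey1, Dll4, Bmx, Unc5b, Efnb2), venous (Nr2f2, Ackr1, Selp) and lymphatic (Prox1, Lyve1, Reln, Mmrn1) lists was ahead in UMIs in each cell. In set 1, 31 of 38 cells were ahead for the arterial list, and they held all 190 Gja4 and all 23 Gja5 UMIs. The rest had little depth, with 3 venous cells whose 0 Gja4 UMIs allow up to 146 CPM and 4 cells with no list ahead that allow up to 480.2 CPM. In set 3 the arterial list was ahead in 76 cells and the venous list in 69. Gja4 had 20 UMIs in 9 of the 76 arterial cells, 54.4 CPM (33.2 to 83.9), and 0 UMIs in the 69 venous cells, with an upper bound of 13.0 CPM. The median depths were alike, 3561 and 3822 UMIs. Another 11 Gja4 UMIs of set 3 were in 4 of 45 cells with no list ahead, and 3 were in 2 of 6 cells ahead for the lymphatic list. In set 2, 10 UMIs were in 8 of 63 arterial cells and 7 were in a single cell with no list ahead. Gja1 had UMIs in cells of both lists. In set 3 it was higher in arterial cells, at 424 CPM (360 to 496) against 268 CPM (211 to 335) in venous cells. In set 2 the intervals overlapped, at 174 CPM (132 to 225) and 188 CPM (93.6 to 335). The lists were compared by UMIs summed over 6 arterial, 3 venous and 4 lymphatic genes, so the arterial list had more genes to draw on. Cells of low depth can fall to any of them.

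**Figure D3:**
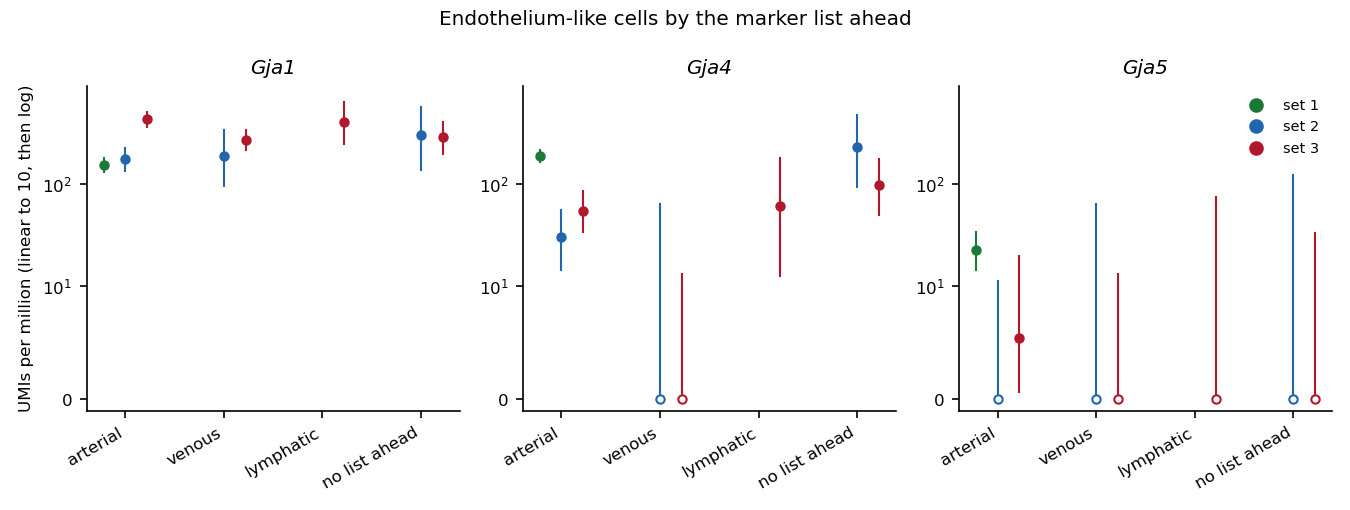
Levels of Gja1, Gja4 and Gja5 in CPM (vertical axis, linear to 10 and logarithmic above) in endothelium-like cells grouped by the marker list ahead in each cell, for sets 1, 2 and 3 where a group had at least 5 cells. Points are sums, lines are 95% Poisson intervals and open points are sums of 0; Gja1 is above 100 in every group shown, and Gja4 has 0 UMIs in venous cells of sets 2 and 3.

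Gjb5, of the stratified epithelium group, was sparse, with 44 UMIs in 37 cells. Epithelium-like cells held 13, 9 and 8 UMIs in sets 1, 2 and 3, or 1.62 CPM (0.863 to 2.77), 0.998 CPM (0.456 to 1.89) and 0.446 CPM (0.193 to 0.879). Fibroblast-like cells held 8, 5 and 0 UMIs, or 1.08 CPM (0.466 to 2.13) and 1.95 CPM (0.634 to 4.55) in sets 1 and 2. The classes could not be told apart at this depth, with log2 ratios of 0.59 (-0.80 to 2.06) and -0.97 (-2.70 to 0.96), and in set 3 the 8 UMIs against 0 gave no ratio because 3 UMIs in fibroblast-like cells would be a higher level. All 13 fibroblast-like UMIs were in cluster 3 and none in cluster 2. Endothelium-like, pericyte-like, glia-like, leukocyte-like and neuron-like cells had 0 Gjb5 UMIs, and 1 UMI was in a smooth muscle-like cell of set 2. No cell held more than 4 UMIs.

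Among the other connexins, some were found in the nervous tissue of the samples. Gjc3, a connexin of Schwann cells, was at 34.7, 65.2 and 130 CPM in glia-like cells, which held 20 of 20, 15 of 17 and 35 of 39 of its UMIs. Gjd2, the neuronal connexin, had 48 UMIs, all in 20 of 32 neuron-like cells of set 1. Gjb1, known from Schwann cells and from glandular epithelium, had 60 UMIs in set 3. Of these 45 were in epithelium-like cluster 4, 6 in cluster 8, 1 in cluster 1 and 8 in glia-like cells. Its level was 4.93 CPM in cluster 4, 4.84 CPM in cluster 8 and 29.7 CPM in glia-like cells, where 1 cell held 6 of the 8 UMIs. In set 2, 10 of its 21 UMIs were in a single glia-like cell. Gja6 had 6 UMIs in all.

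Of 17 names of gap junction partners (scaffolds, kinases and relatives) 6 had a row. Over fibroblast-like cells, 3, 3 and 5 of the 6 were at least 2-fold higher in endothelium-like cells of sets 1, 2 and 3, beside 12.1%, 17% and 22.8% of all rows. In epithelium-like cells 3 of 6 were higher in each set, beside 16.8%, 15.5% and 20.7%. These 3 were Tjp1, Src and Cdh1. Cdh1 is also an epithelium marker used to name that class, so its call there was not independent of the naming. In the other direction, Cav1 was at least 2-fold lower in epithelium-like cells of set 1, at 10.6 CPM, beside 23.6%, 19.6% and 22.4% of all rows lower in sets 1, 2 and 3. Cnst and Src were at least 2-fold lower in endothelium-like cells of set 1, beside 19.9%, 10.7% and 12.3% of all rows. Tjp1, the scaffold that binds the tail of Gja1, was at 96.9, 126 and 126 CPM in endothelium-like cells and 91.8, 77.6 and 72.1 CPM in epithelium-like cells. Its fibroblast-like levels in sets 2 and 3 were 32.0 and 28.3 CPM. Cav1, the caveolae protein, was at 880, 782 and 717 CPM in endothelium-like cells and 75.2, 210 and 86.0 CPM in fibroblast-like cells. Within the epithelium Cav1 was at 274 CPM in cluster 1 and 70.1 CPM in cluster 4 of set 2, and at 111 and 31.4 CPM in set 3. The median log2 ratio of endothelium-like over fibroblast-like cells was 0.10, 1.39 and 1.88 over these 6 rows and -0.19, 0.10 and 0.27 over all rows. Cdh1, the epithelial cadherin, was among the rows higher in endothelium-like cells of all 3 sets, at 2.85, 56.1 and 120 CPM, while it was at 316, 460 and 381 CPM in epithelium-like cells. In set 1 this rests on 3 UMIs (interval 0.588 to 8.33 CPM) against 10 UMIs in fibroblast-like cells (1.35 CPM, 0.647 to 2.48), and the intervals overlap. Epithelium markers summed to 42.7, 1203 and 2009 CPM in endothelium-like cells, and their part in the Cdh1 level was not tested.

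Genes whose log2(CPM + 5) ran most like each member over 21 points (classes of at least 20 cells in each set) were listed by Pearson's r, as a description, since the points share libraries and depth. For Gja1 they were Wwc2 (r = 0.83), Fgd5 (0.79), Plekhg1 (0.79), Elk4 (0.78) and Gm10941 (0.75). For Gja4 they were Lhx6 (0.87, from 61 UMIs), Plvap (0.86), Ushbp1 (0.84), Apln (0.84) and Grrp1 (0.83). Plvap is an endothelial fenestra protein and Apln a ligand made by endothelium. Plvap was also among the markers used to name endothelium-like cells, so its likeness was not independent of the naming. For Gja5 no list is given, because 23 of its 30 UMIs were in 3 cells of a single point. For Gjb5 they were Prss56 (0.80), Gm9767 (0.79), Zim1 (0.78), Xlr3a (0.73) and Dusp9 (0.73), which rest on sparse counts.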

How the data were processed

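The libraries were 10x Genomics 3 prime single cell RNA libraries (the labels name chemistry v3, the study's methods v2), from tissue dissociated with collagenase and TrypLE. Per the labels, UMIs were counted with Cell Ranger 3.1.0 on mm10. The methods add transgene sequences to the genome, filters for empty droplets, multiplets and mitochondrial RNA, and normalisation in Seurat. The deposited values are natural log (ln) values, of 1 plus the UMIs scaled to 1 fixed total in every cell, although the table is named as counts, so whole UMIs were recovered from them by the steps shared within a cell (11120281 of 11120281 values above 0 were whole within 0.05). Of 9784 rows, 3 were left out (1 incomplete, 2 with a repeated name). The rows hold about 50.7% of the UMIs that the totals imply, CPM are taken over those totals, and genes with no row were not analysed here.

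Cells with at least 200 genes were integrated over sets (20 dimensions, 2000 variable genes) and clustered at resolution 0.5 on 30 components with cell cycle scores regressed out, with Seurat 5.3.0 in R 4.3.3. The connexin rows were kept out of the features. Clusters were named from marker lists. Doublet scores came from scanpy 1.11.5, whose automatic threshold marked 3, 0 and 0 cells and so did not work. No doublets were removed in the values given. The members, the marker lists and the comparisons were chosen with earlier results of these data known. Genes named were the members, other connexin rows (some are not reported here), partner rows with a row and the 5 rows most like each member (not printed for Gja5). UMIs were summed per class and set. Intervals were exact (Poisson for CPM, binomial split for log2 ratios) at 95%, and UMIs are counted molecules, so they cover counting error only. Sums under 3 UMIs were set to 3, with no ratio where that turned the direction. A row was tested in a comparison if both classes together had at least 10 UMIs, and called if it was at least 2-fold apart with at least 3 UMIs in the higher class. On simulated UMIs for endothelium-like over fibroblast-like cells of set 1, 100% of 200 changed rows among 9781 were called in the right direction, and 96% of intervals held the true ratio. The changed rows had at least 200 UMIs in both classes together and a planted log2 change of 2 up or down, past the 2-fold call. Their UMIs varied by counting error only. The simulation therefore says nothing on sparse rows such as Gja5, or on UMIs gathered in 1 cell. For the E18.5 sample the study states as many cells as set 1 holds, and its counts for the other samples differ from sets 2 and 3; this was not used to assign sets. Alternatives were a resolution of 1.0, no integration, at least 500 genes per cell, removal of the cells with the highest doublet scores, thinning to 900 UMIs per cell, classing cells one by one from their markers, a floor of 1 UMI, and the sign of differences of mean deposited values. Alternatives chosen after seeing the data left out the cell with most UMIs, cells with Myod1, or endothelium-like cells with pericyte or epithelium marker UMIs. The contrasts of epithelium-like with smooth muscle-like and of endothelium-like with pericyte-like cells were also put through all alternatives only after seeing the data.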

Additional observations from a re-analysis of the deposited data

Results flagged for a closer look

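Some contrasts between classes had opposite directions in different sets, with counting intervals that left out 0 on both sides. The difference between sets was not tested, since each set is 1 library. Gja1 in smooth muscle-like over fibroblast-like cells had a log2 ratio of 1.14 in set 1, -0.85 in set 2 and -1.42 in set 3. With at least 500 genes per cell the set 1 ratio was -0.02 (-0.62 to 0.55). Gja1 in epithelium-like over smooth muscle-like cells had -0.64 in set 1, 2.04 in set 2 and 1.42 in set 3, and with at least 500 genes per cell the set 1 ratio was 0.36 (-0.20 to 0.95). Gja4 in endothelium-like over pericyte-like cells had 2.09 in set 1 and -1.59 in set 3, with 10 pericyte-like cells in set 1 and 107 of 190 endothelium-like UMIs of set 1 in 1 cell. Without that cell the set 1 ratio was 0.98 (0.03 to 2.10). The set 3 ratio was -0.71 (-1.54 to 0.14) with cells classed one by one and -0.40 (-1.19 to 0.40) without endothelium-like cells with an epithelium marker UMI.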

How the results depend on the processing

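Each of 22 results (a member's log2 ratio in 1 set) was recomputed under up to 12 alternatives, 212 values in all. In all, 8 had another sign than the reported value. Of these 4 belong to ratios whose interval left out 0, and 4 to Gja1 in epithelium-like over fibroblast-like cells of set 3, reported as -0.0060 with an interval that holds 0, which was 0.068 without integration, 0.016 classed one by one, 0.70 thinned and 0.21 as a difference of mean deposited values. Apart from the first 4, 26 values, the 0.70 included, lay outside the reported counting interval, and 15 further recomputations gave no value. Thinning to 900 UMIs gave Gja1 in epithelium-like over fibroblast-like cells -0.23 in set 1 (3 and 8 UMIs left) and 0.70 in set 3, and Gja4 in endothelium-like cells of set 1 4.92. Classing cells one by one gave Gja1 in epithelium-like cells of set 1 0.082, and in endothelium-like cells of set 1 Gja4 5.21 and Gja5 3.23, while Gja4 in pericyte-like over fibroblast-like cells of set 1 was 1.07 in place of 4.71. Gja1 in endothelium-like cells was 1.92 thinned and 2.54 classed one by one in set 1, and 2.71 thinned and 2.66 without cells with an epithelium marker UMI in set 3. With at least 500 genes per cell Gja1 in epithelium-like cells of set 3 was -0.39, Gja4 in endothelium-like cells of set 3 was 3.84 and Gja1 in smooth muscle-like cells of set 1 was -0.016, while in set 2, thinned, it was -1.71. Gja1 in epithelium-like over smooth muscle-like cells of set 1 was -0.64 as reported, 0.36 with at least 500 genes per cell and 0.044 as a difference of mean deposited values, and thinning gave 3.099 in set 2 and 1.84 in set 3. Gja4 in endothelium-like over pericyte-like cells of set 1 was 4.14 classed one by one and 0.98 without the cell with most UMIs. Gja4 in endothelium-like cells of set 1 was 5.70 without high doublet scores and 5.70 without the cell with most UMIs, which both leave out 107 UMIs, 5.80 without cells with a pericyte marker UMI and 5.92 without those with an epithelium marker UMI. The cause of the other changes was not tested. Without integration the fibroblast-like, smooth muscle-like and pericyte-like classes of set 1 held 3, 6 and 0 cells, and no ratio of set 1 could be had there. No paired analysis was possible because the labels give 1 library for an age. Gjb5 and Gja5 rest on 44 and 30 UMIs in all.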
